A study of Mus musculus with 12 samples.

Results

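The CC chemokines Ccl2, Ccl3, Ccl4, Ccl5, Ccl6, Ccl7, Ccl8, Ccl9, Ccl11 and Ccl20 were described in whole subcutaneous pancreatic tumors. The genes were chosen by name, as 10 of the 22630 gene rows of each tumor's table, and all 10 had enough counts to be tested. RNA-seq had been done on 12 tumors grown from the mouse pancreatic cancer line KCip53-1 under the skin of immunocompromised NSG mice, with 4 tumors per group (no-dox, off-dox, plus-dox). No-dox animals never received doxycycline (dox), plus-dox animals drank it for 36 days, and off-dox animals drank it for 33 days and were then without it for 3 days. The dox water of the plus-dox and off-dox animals held 0.2 g of dox per litre and 5% sucrose. Whether the water of no-dox animals held sucrose was not given. If it held none, dox and sucrose cannot be told apart in comparisons with that group. All groups shared the same line, the same host strain at an age of 8 to 10 weeks, an inoculum of 500000 cells and 2 tumors per mouse.

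The line carries a p53R270H transgene built to be switched on by dox, so the comparisons ask which transcripts differed between tumors whose hosts drank dox, never drank it, or were taken off it. Every group also carried the dox-dependent activator, released by Ptf1a-Cre, which acts in pancreatic epithelium. KCip53-1 came from the tumor of a single animal, sorted for the reporter that is switched on with the transgene and then propagated on dox, so cells of the no-dox tumors had met dox before they were injected. The KCip53 lines examined for it in the study had lost the wild-type sequence of the gene. NSG hosts lack mature T, B and NK cells but keep macrophages and neutrophils, with known defects in their function. Which tumors shared a mouse was not given, so tumors counted as separate may not be independent and p-values may be too small.

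CC chemokines are small secreted proteins with a pair of adjacent cysteines near their amino end. They bind G protein-coupled receptors of the CCR family on leukocytes and draw those cells into inflamed tissue and tumors. Macrophages, fibroblasts and epithelial cells release them in response to inflammatory signals such as NF-kB activation and interferon, and in pancreatic cancer the Ccl2 to Ccr2 route is known for bringing monocytes into the tumor.

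Counted reads per tumor ranged from 19845923 to 33137609. They were 88.4 to 89.4% of the mapped reads in no-dox tumors, 82.2 to 87.1% in plus-dox and 81.1 to 85.8% in off-dox tumors, so this share separated the no-dox tumors from the other 8. The row of Trp53, which could hold reads of both the transgene and the gene itself, lay at 40.1 to 57.4 RPKM in no-dox, 40.4 to 56.0 in plus-dox and 41.6 to 45.4 in off-dox tumors and did not separate the groups. Against no-dox its log2 fold change was 0.04 (SE 0.11) in plus-dox and -0.08 (SE 0.11) in off-dox tumors (edgeR adjusted p = 0.891 and 0.699), so this row did not show the transgene as on in one group and off in another, and the groups are named below by their dox treatment alone. By immunostaining for the reporter dsRed in KCip53 tumors, the study saw none in no-dox, uneven staining in plus-dox and fewer stained cells in off-dox. RPKM denotes reads per kilobase of exon, scaled to the total of mapped reads. Plus-dox tumor 2 and off-dox tumor 4 stood apart with the lowest Epcam, an epithelial surface marker, at 7.76 and 40.9 RPKM against 72.3 to 388 in the other 10. As the samples were whole tumors, fewer cells of a type and less RNA per cell cannot be told apart in any value below.

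**Figure D1:**
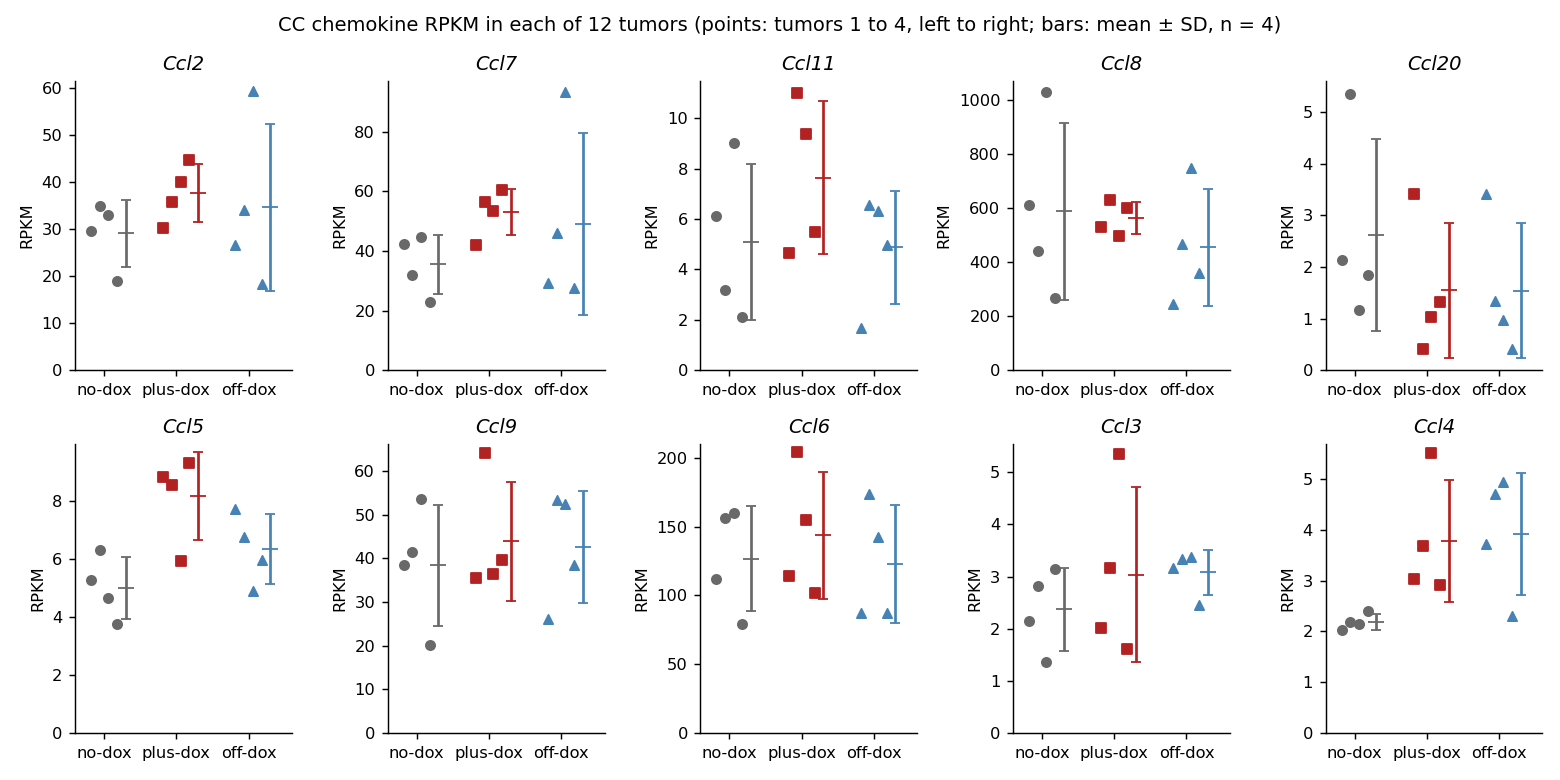
RPKM (y axis, linear, from 0) of each of the 10 CC chemokines in no-dox (circles), plus-dox (squares) and off-dox (triangles) tumors, with 1 point per tumor and the mean ± SD of 4 tumors beside the points. The no-dox and plus-dox points of Ccl4 do not overlap, while those of the other 9 genes do.

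The genes lay in 2 neighbourhoods of chromosome 11 and 1 site elsewhere (coordinates in mm9, the build of the files). The first neighbourhood, positions 81849079 to 81930301, holds Ccl2, Ccl7, Ccl11, Ccl12 and Ccl8 in that order with no other gene row in its 81.2 kb. These encode the monocyte chemoattractant proteins and eotaxin (Ccl11). The second lies 1409 kb further on, at positions 83339281 to 83478185, and holds Ccl5, Ccl9, Ccl6, Ccl3 and Ccl4 in that order, with 1 other gene row, E230016K23Rik, between Ccl9 and Ccl6, the last pair of chemokines being the macrophage inflammatory proteins 1-alpha and 1-beta. Ccl20, the ligand of Ccr6, lies alone on chromosome 1 at 83113341 to 83115742.

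Promoter sequence from RefSeq (GRCm38.p6) was at hand for 5 of the 10 genes, Ccl3, Ccl6, Ccl8, Ccl9 and Ccl20, and not for Ccl2, Ccl4, Ccl5, Ccl7 and Ccl11. The 250 bases before the start are shown for the gene with the highest level, Ccl8, with a TATAAA match in capitals, and for Ccl20, the gene with the lowest level and the widest range, with a match to the core of an NF-kB site in capitals. The Ccl8 window is chr11:82114935-82115184 on the plus strand, and the Ccl20 window is chr1:83116516-83116765 on the plus strand.
Ccl8: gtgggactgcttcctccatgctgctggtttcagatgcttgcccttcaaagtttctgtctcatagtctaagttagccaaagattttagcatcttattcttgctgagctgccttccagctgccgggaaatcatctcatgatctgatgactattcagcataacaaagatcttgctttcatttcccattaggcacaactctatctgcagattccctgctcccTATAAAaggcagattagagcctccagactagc
Ccl20: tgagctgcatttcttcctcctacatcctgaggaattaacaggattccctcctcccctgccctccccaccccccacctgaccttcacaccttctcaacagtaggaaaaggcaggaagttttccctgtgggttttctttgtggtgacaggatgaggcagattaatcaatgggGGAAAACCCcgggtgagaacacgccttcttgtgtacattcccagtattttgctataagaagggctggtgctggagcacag

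Ccl6 and Ccl9 are shown together because their levels followed each other over the tumors and because they lie near each other on the minus strand, Ccl6 at chr11:83593088-83593337 and Ccl9 at chr11:83578637-83578886. Capitals mark stretches of 10 or more bases that both windows hold.
Ccl6: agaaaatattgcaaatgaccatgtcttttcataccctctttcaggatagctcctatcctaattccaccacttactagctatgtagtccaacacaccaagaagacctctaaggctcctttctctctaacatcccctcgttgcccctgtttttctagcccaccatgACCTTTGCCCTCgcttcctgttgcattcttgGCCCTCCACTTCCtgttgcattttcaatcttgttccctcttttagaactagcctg
Ccl9: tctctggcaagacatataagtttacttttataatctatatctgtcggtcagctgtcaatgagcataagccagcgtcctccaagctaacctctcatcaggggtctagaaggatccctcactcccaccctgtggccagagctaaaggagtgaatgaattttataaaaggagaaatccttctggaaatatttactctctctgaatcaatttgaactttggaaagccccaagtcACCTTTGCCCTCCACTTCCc

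The longest stretch shared by Ccl6 and Ccl9 was the 13 bases GCCCTCCACTTCC, which on either strand stood in 5 of 32851 promoter windows of the same length (0.0152%). Ccl6 and Ccl9 are 2 of these 5 by choice, as the stretch was picked from their windows. That share therefore does not measure how rare such a match is. None of the windows of Ccl3, Ccl8 and Ccl20 held the stretch. The best local alignment had 16 of 17 positions alike for Ccl6 with Ccl9. For Ccl20 it had 13 of 14 alike with Ccl6, 13 of 14 with Ccl8 and 15 of 17 with Ccl9. For Ccl8 with Ccl9 it had 12 of 13 alike. The levels of Ccl8 and Ccl9 also followed each other over the tumors (Pearson r = 0.78, 0.85 for deviations from group means). Read on both strands, the NF-kB site core GGNNTTTCC stood in the windows of Ccl20, 80 to 72 bases before the start, and Ccl9, 35 to 27 bases before the start, against 4.93% of all windows. TGANTCA, the AP-1 motif, stood in Ccl9 alone among the 5 (6.75% of all windows), and TATAAA in Ccl8, 32 to 27 bases before the start, and at 3 places in Ccl9, 2 of which overlap each other (12.4%). TTTCNNTTT, part of an interferon response motif (9.37%), and GAGGAAGT, a PU.1 motif (2.44%), were in none of the 5. Such matches describe letters only.

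Ccl8 dominated the CC chemokine transcripts of these tumors. Averaged over the 12 tumors its level was 536 ± 216 RPKM, above the 131 ± 39.7 RPKM of Ccl6 in each of the 12. Ccl7 (45.9 ± 19.0), Ccl9 (41.6 ± 12.4) and Ccl2 (33.8 ± 11.1) formed a middle set whose order was not stable, since Ccl7 exceeded Ccl9 in 7 tumors and Ccl9 exceeded Ccl2 in 8. All 3 stood above Ccl5 (6.51 ± 1.79), Ccl11 (5.87 ± 2.87), Ccl4 (3.30 ± 1.21), Ccl3 (2.83 ± 1.05) and Ccl20 (1.90 ± 1.47), among which neighbours again changed places, Ccl5 exceeding Ccl11 in 7 tumors, Ccl11 Ccl4 in 10, Ccl4 Ccl3 in 8 and Ccl3 Ccl20 in 9.

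The 5 highest genes together made up 95.5 to 98.6% of the summed RPKM of the 10. Ccl8 alone made up 56.4 to 76.95% (median 64.6%) and Ccl6 11.8 to 21.8% (median 17.3%). Counted as reads rather than per length, the Ccl8 transcript, with 511 exonic bases, held a median of 38.7%, and Ccl9, with 3008 exonic bases, a median of 17.8%, against 4.72% per length. The summed RPKM of the 10 genes was 836 ± 382 in the no-dox group, 867 ± 107 in the plus-dox group and 725 ± 304 in the off-dox group (SD, n = 4 each), and its highest and lowest values, 1341 and 423, both fell in the no-dox group.

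**Figure D2:**
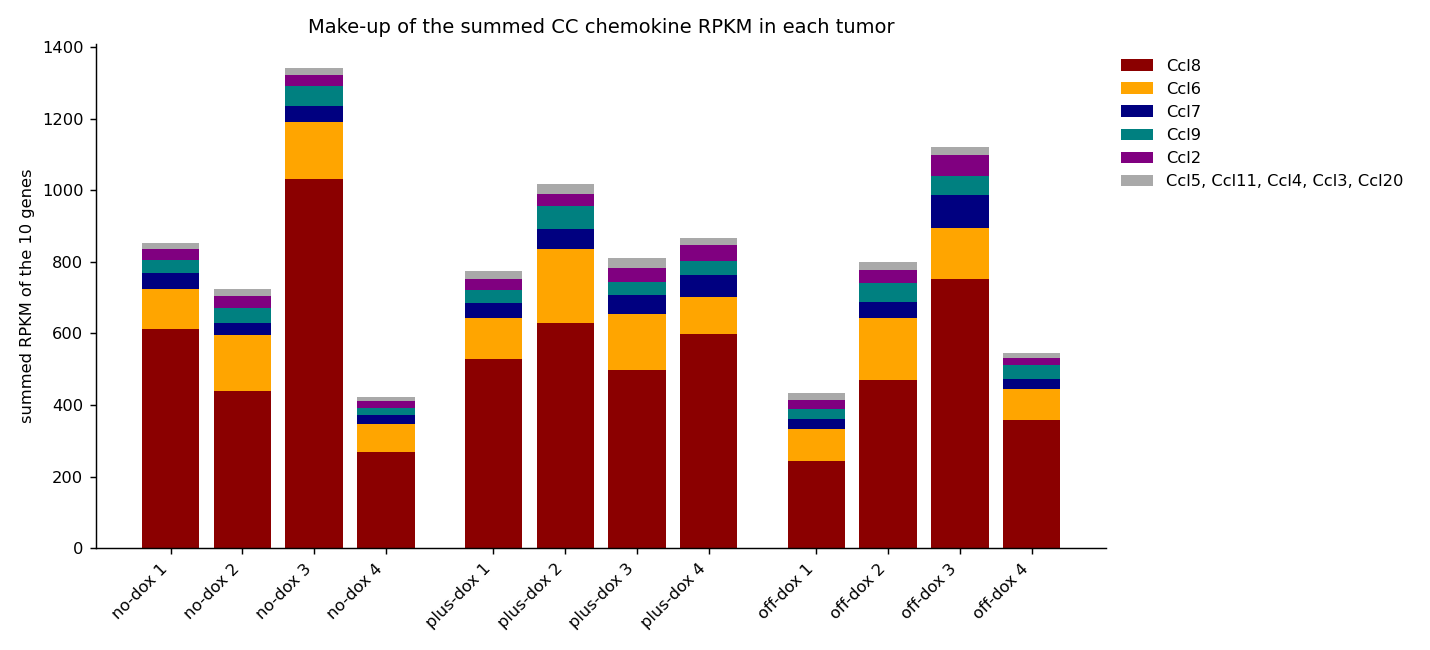
Summed RPKM of the 10 CC chemokines (y axis, linear, from 0) in each of the 12 tumors, stacked by gene, with the 5 lowest genes in grey. Ccl8 is the largest part of every bar, and the tallest and shortest bars are no-dox tumors 3 and 4.

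No CC chemokine changed in any of the 3 comparisons at the limits used, which were a Benjamini-Hochberg adjusted p under 0.1 in edgeR's quasi-likelihood test over 17561 genes, a change over 1.5-fold and a mean RPKM over 0.25. In plus-dox against no-dox tumors 0 of 10 were called (background 0.0%), in off-dox against no-dox 0 of 10 (background 1.34%, or 235 genes), and in off-dox against plus-dox 0 of 10 (background 0.0%). At an unadjusted p under 0.05, 2 of 10 were higher in plus-dox than no-dox (Ccl4 and Ccl5, background 8.0%), 1 of 10 was higher in off-dox than no-dox (Ccl4, background 10.9%), and 0 of 10 differed between off-dox and plus-dox (background 3.06%). The fitted median log2 fold change of the 10 was 0.39, 0.23 and -0.11 in these comparisons, against medians of 0.013, 0.0072 and -0.00051 over all genes tested, and 8, 6 and 3 of the 10 values were positive. By DESeq2, 1 of 10 was called in plus-dox against no-dox (Ccl5, background 0.512%), 1 of 10 in off-dox against no-dox (Ccl4, background 2.25%) and 0 of 10 in off-dox against plus-dox (background 0.0228%). Plus-dox and off-dox were set against the same no-dox tumors, so the values of these 2 comparisons are not independent.

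**Figure D3:**
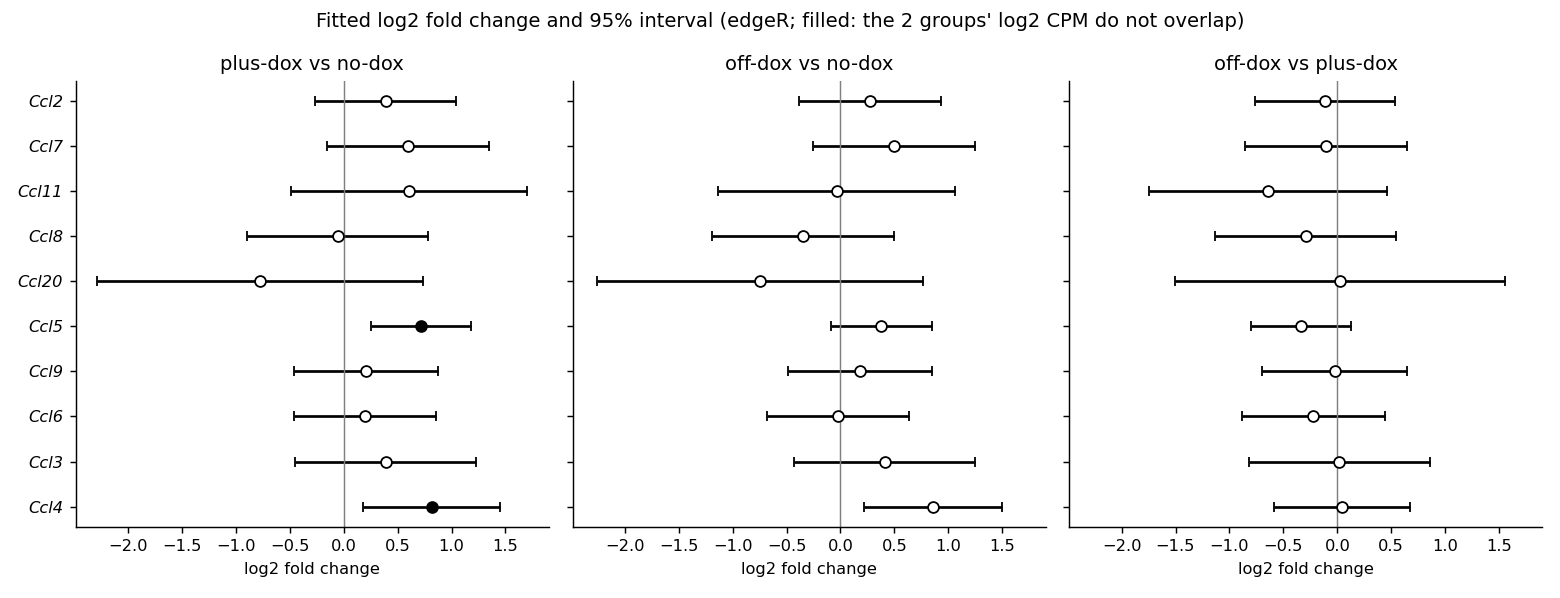
Fitted log2 fold change (x axis) of each CC chemokine with its 95% interval from edgeR, in 3 panels for the 3 comparisons, filled where the log2 CPM of the 4 and 4 tumors do not overlap. The intervals of Ccl4 and Ccl5 in plus-dox against no-dox and of Ccl4 in off-dox against no-dox lie above 0, and all others cross 0.

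Among Ccl3, Ccl4 and Ccl5, which attract monocytes and T cells, Ccl4 had the narrowest spread in the controls. Its RPKM was 2.03, 2.18, 2.14 and 2.40 in no-dox tumors 1 to 4, 3.03, 3.68, 5.52 and 2.91 in plus-dox tumors 1 to 4, and 3.72, 4.70, 4.95 and 2.30 in off-dox tumors 1 to 4. All 4 plus-dox values stood above the highest no-dox value, and off-dox tumors 1 to 3 did too, while off-dox tumor 4 lay within the no-dox range. The background for RPKM values that do not overlap, with plus-dox higher, was 4.3% of genes.

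The fitted log2 fold change of Ccl4 was 0.82 (SE 0.29, 95% interval 0.18 to 1.45) in plus-dox against no-dox, which did not pass after adjustment (edgeR adjusted p = 0.327). A two-sided exact permutation test on its log2 CPM, which for 4 against 4 tumors has 70 arrangements and cannot go below p = 0.029, gave p = 0.029. In off-dox against no-dox the value was 0.86 (SE 0.29, 95% interval 0.22 to 1.50) with an edgeR adjusted p of 0.146 and an exact p of 0.057. DESeq2 called this difference, and so did edgeR when plus-dox tumor 2 and off-dox tumor 4 were both left out (log2 fold change 1.04), and adjusted p ran from 0.0642 to 0.302 over all alternatives. Off-dox and plus-dox differed by 0.043 (SE 0.29, 95% interval -0.59 to 0.67).

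Ccl5, a chemokine known from T cells and other leukocytes, was 5.28, 6.32, 4.65 and 3.76 in no-dox tumors 1 to 4, 8.84, 8.57, 5.94 and 9.34 in plus-dox tumors 1 to 4, and 7.75, 6.77, 4.91 and 5.97 in off-dox tumors 1 to 4 RPKM. Plus-dox tumors 1, 2 and 4 exceeded every no-dox tumor, while plus-dox tumor 3 at 5.94 RPKM lay below no-dox tumor 2 at 6.32, and on the log2 CPM scale, which is scaled by TMM, the 4 and 4 tumors did not overlap (background with plus-dox higher 4.37%). The log2 fold change was 0.72 (SE 0.21, 95% interval 0.25 to 1.18) in plus-dox against no-dox (edgeR adjusted p = 0.322, exact p = 0.029). DESeq2 called it, and adjusted p ran from 0.0854 to 0.550 over the alternatives. The study placed Ccl5 in a migration gene group picked on these same tumors, so its direction here is no independent evidence for that group.

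For Ccl5 the off-dox tumors lay between the other groups, with a log2 fold change of 0.38 (SE 0.21, 95% interval -0.086 to 0.84) against no-dox and -0.34 (SE 0.21, 95% interval -0.80 to 0.13) against plus-dox. Neither passed (edgeR adjusted p = 0.333 and 1.00).

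Ccl3, the partner of Ccl4 at the end of the second neighbourhood and a ligand of Ccr1, was 2.15, 2.81, 1.36 and 3.15 in no-dox tumors 1 to 4, 2.02, 3.15, 5.35 and 1.62 in plus-dox tumors 1 to 4, and 3.17, 3.34, 3.38 and 2.45 in off-dox tumors 1 to 4 RPKM. The 3 groups overlapped, and plus-dox tumor 3, which was also highest in Ccl4, had the highest Ccl3. Its log2 fold change was 0.39 (SE 0.39, 95% interval -0.45 to 1.23) in plus-dox and 0.41 (SE 0.39, 95% interval -0.43 to 1.25) in off-dox against no-dox tumors, and the former was -0.074 without plus-dox tumor 3.

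Neutrophil markers followed Ccl4 over the tumors and within the groups, with r = 0.78 for their mean log2 CPM over the 12 tumors and 0.59 for deviations from group means. For Ccl5 with neutrophil markers these values were 0.62 and 0.20. T and NK cell markers correlated with Ccl4 at 0.57 and with Ccl5 at 0.58 over the 12 tumors but at -0.13 and 0.12 for deviations from group means, so they differed between groups as these genes did and did not follow them from tumor to tumor within a group. Of the 7 neutrophil markers 6 had a row, all 6 over 0.25 RPKM, and their summed RPKM was 23.4 to 35.2 in no-dox, 34.05 to 57.5 in plus-dox and 23.97 to 50.04 in off-dox tumors. Of the 11 T and NK cell markers 6 exceeded 0.25 RPKM, and the list summed to 4.06 to 7.23, 8.48 to 11.5 and 7.58 to 18.4 RPKM in the same order. The others, Cd3d, Cd3e, Cd3g, Cd8a and Cd8b1, averaged 0.155, 0.0332, 0.221, 0.0878 and 0.0344 RPKM over the 12 tumors. The mean of this list therefore rests in part on few counts. No marker of either list was at 0 in all tumors, and Ly6g had no row. Skeletal muscle markers also correlated with Ccl4, at 0.66 over the 12 tumors and 0.51 for deviations from group means. The link of Ccl4 was thus not particular to neutrophil markers, and the part of any of these cells in the chemokine values was not tested.

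Cxcr2, the neutrophil receptor for CXC chemokines, was among the 3 genes most like Ccl4 of 14538 searched, with Pearson r = 0.88 of log2 CPM over the 12 tumors (0.74 for deviations from group means). Cxcr2 was called higher in off-dox than no-dox tumors, with a log2 fold change of 0.90 (SE 0.19, 95% interval 0.48 to 1.32), as was Csf3r, the receptor of the neutrophil growth factor, with 0.78 (SE 0.17, 95% interval 0.42 to 1.14) (edgeR adjusted p = 0.0832 for both). NSG hosts lack mature T and NK cells, and which cells held the transcripts of the T and NK cell list was not tested. Cd4 of that list averaged 3.23 RPKM over the 12 tumors, against 0.0332 for Cd3e. In the T and NK cell list Nkg7 (log2 fold change 1.65) and Cd4 (0.73) were called higher, at edgeR adjusted p = 0.0875 and 0.0933. These 4 calls and that of Il1b below were lost without any single one of no-dox tumors 1 to 4, plus-dox tumors 3 and 4 and off-dox tumors 2 to 4, and adjusted p of the 4 ran from 0.0018 to 0.22 over their alternatives, with log2 fold changes of 0.72 to 1.02 for Cxcr2, 0.61 to 0.92 for Csf3r, 1.39 to 1.85 for Nkg7 and 0.56 to 0.86 for Cd4 on leaving out 1 tumor.

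Ccl2, the main ligand of Ccr2 and a monocyte attractant, was 29.6, 34.9, 32.9 and 18.9 in no-dox tumors 1 to 4, 30.2, 35.8, 40.0 and 44.6 in plus-dox tumors 1 to 4, and 26.7, 33.9995, 59.3 and 18.3 in off-dox tumors 1 to 4 RPKM. The groups overlapped, with the lowest values in off-dox tumor 4 and no-dox tumor 4 and the highest in off-dox tumor 3. Its log2 fold change was 0.39 (SE 0.30, 95% interval -0.27 to 1.04) in plus-dox and 0.27 (SE 0.30, 95% interval -0.38 to 0.93) in off-dox against no-dox tumors.

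Ccl7, a monocyte attractant that also binds Ccr2, was 42.2, 31.9, 44.7 and 23.0 in no-dox tumors 1 to 4, 42.1, 56.4, 53.5 and 60.3 in plus-dox tumors 1 to 4, and 29.3, 46.1, 93.3 and 27.7 in off-dox tumors 1 to 4 RPKM. Off-dox tumor 3 again stood highest, and of the plus-dox tumors only tumor 1 lay within the no-dox range. The log2 fold change was 0.60 (SE 0.34, 95% interval -0.16 to 1.35) in plus-dox against no-dox, with an edgeR adjusted p of 0.442 and an exact p of 0.057, and 0.49 (SE 0.34, 95% interval -0.26 to 1.24) in off-dox against no-dox, where it was -0.011 without off-dox tumor 3.

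Ccl2 and Ccl7 varied together from tumor to tumor, with Pearson r = 0.92 and Spearman rho = 0.97 over the 12 tumors, r = 0.91 for deviations from group means and r = 0.88 without off-dox tumors 3 and 4. Correlations of this kind are descriptions over 12 points that share a library, its depth and its cell makeup. Ccl12, a mouse monocyte chemoattractant of the same neighbourhood that was not among the 10, followed both (r = 0.90 with Ccl2 and 0.92 with Ccl7). Its RPKM was 67.5, 53.4, 67.6 and 43.6 in no-dox tumors 1 to 4, 83.4, 62.4, 82.2 and 97.6 in plus-dox tumors 1 to 4, and 50.5, 84.0, 154 and 38.7 in off-dox tumors 1 to 4, with off-dox tumor 3 the highest here as well, and its groups overlapped.

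The mean of the macrophage markers followed this trio. The mean log2 CPM of 10 macrophage markers correlated with Ccl2 at r = 0.89 and with Ccl7 at r = 0.78 over the 12 tumors, and at 0.97 and 0.91 for deviations from group means. With Ccl12 these values were 0.79 and 0.88. Csf1r, 1 of the 10 markers, followed less closely, at r = 0.54 with Ccl2 and 0.50 with Ccl7. Without off-dox tumor 3 and no-dox tumor 3 its r was 0.32 and 0.18. All 10 exceeded 0.25 RPKM, and their summed RPKM was 2307 to 3335 in no-dox, 2596 to 3109 in plus-dox and 2355 to 4178 in off-dox tumors. Skeletal muscle markers correlated with Ccl2 and Ccl7 as well (r = 0.81 and 0.83, and 0.81 and 0.80 for deviations from group means), summing to 7.79 to 147 RPKM in no-dox, 111 to 364 in plus-dox and 8.13 to 1004 in off-dox tumors, with all 5 over 0.25 RPKM and none at 0 in all tumors. The part of either tissue in the chemokine values was not tested.

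Ccl8, the monocyte chemoattractant protein that is known in mice as a Ccr8 ligand, was 613, 440.4, 1032 and 269 in no-dox tumors 1 to 4, 529, 630.3, 499 and 599.6 in plus-dox tumors 1 to 4, and 245, 469, 751 and 359 in off-dox tumors 1 to 4 RPKM. No-dox tumors held both the highest value and, after off-dox tumor 1, the lowest, so the 4 plus-dox tumors lay inside the no-dox range. The log2 fold change was -0.057 (SE 0.38, 95% interval -0.90 to 0.78) in plus-dox and -0.35 (SE 0.39, 95% interval -1.19 to 0.49) in off-dox against no-dox tumors, and without no-dox tumor 3 these were 0.39 and 0.11. The genes most like Ccl8 were Fbp1 (r = 0.96), Entpd3 (0.93) and Folr2 (0.92), the last of which encodes a folate receptor of tissue macrophages. The mean of the macrophage markers correlated with Ccl8 at r = 0.71 (0.71 for deviations from group means), but Csf1r of that list at -0.05. Fibroblast markers reached 0.61 (0.59) and adipocyte markers 0.60 (0.61), so the link was not particular to macrophage markers. The part of any of these cells in the Ccl8 values was not tested.

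Ccl11, or eotaxin, an attractant of eosinophils through Ccr3, was 6.10, 3.19, 9.001 and 2.11 in no-dox tumors 1 to 4, 4.66, 11.01, 9.38 and 5.50 in plus-dox tumors 1 to 4, and 1.67, 6.55, 6.31 and 4.98 in off-dox tumors 1 to 4 RPKM. The values ranged 6.59-fold over the 12 tumors and all groups overlapped. The log2 fold change was 0.61 (SE 0.50, 95% interval -0.49 to 1.70) in plus-dox against no-dox, -0.036 (SE 0.51, 95% interval -1.14 to 1.06) in off-dox against no-dox and -0.64 (SE 0.51, 95% interval -1.74 to 0.46) in off-dox against plus-dox. Fibroblast markers, all 8 over 0.25 RPKM, correlated with Ccl11 at r = 0.75 (0.70 for deviations from group means), and they summed to 1071 to 1957 RPKM in no-dox, 1535 to 2992 in plus-dox and 1257 to 1489 in off-dox tumors, their part in its values not being tested. The link was not particular to them. Endothelial markers correlated with Ccl11 at 0.68 (0.60 for deviations) and T and NK cell markers at 0.55 (0.85). Epithelial markers went the other way, at -0.51 (-0.51).

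Ccl6, a rodent chemokine and ligand of Ccr1, was 112, 157, 159.7 and 79.3 in no-dox tumors 1 to 4, 114, 204, 155 and 102 in plus-dox tumors 1 to 4, and 87.3, 174, 143 and 87.2 in off-dox tumors 1 to 4 RPKM. Ccl9, another rodent Ccr1 ligand, was 38.5, 41.6, 53.5 and 20.1 in no-dox tumors 1 to 4, 35.5, 64.1, 36.4 and 39.6 in plus-dox tumors 1 to 4, and 26.2, 53.4, 52.5 and 38.5 in off-dox tumors 1 to 4 RPKM. Both were highest in plus-dox tumor 2 and lowest in no-dox tumor 4, with the groups overlapping.

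The log2 fold change of Ccl6 was 0.20 (SE 0.30, 95% interval -0.46 to 0.86) in plus-dox and -0.02 (SE 0.30, 95% interval -0.68 to 0.64) in off-dox against no-dox tumors. For Ccl9 it was 0.21 (SE 0.31, 95% interval -0.46 to 0.87) and 0.18 (SE 0.31, 95% interval -0.49 to 0.85). Without plus-dox tumor 2 the plus-dox values were -0.018 for Ccl6 and -0.041 for Ccl9. The pair correlated at r = 0.84 (0.86 for deviations from group means, 0.73 without plus-dox tumor 2 and no-dox tumor 4), and the genes most like Ccl9 were Ms4a6d (r = 0.96), Npl (0.93) and Piwil2 (0.93), while those most like Ccl6 were Saa3 (0.89), an acute phase protein gene, Prg4 (0.87) and Gm11428 (0.87).

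Ccl20, which attracts Ccr6-bearing lymphocytes and dendritic cells and is known as an epithelial product, was 2.13, 5.35, 1.17 and 1.85 in no-dox tumors 1 to 4, 3.41, 0.419, 1.03 and 1.33 in plus-dox tumors 1 to 4, and 3.41, 1.34, 0.978 and 0.416 in off-dox tumors 1 to 4 RPKM. It ranged 12.9-fold, from 10 to 129 counts, and plus-dox tumor 2 and off-dox tumor 4 were the lowest. The log2 fold change was -0.77 (SE 0.69, 95% interval -2.28 to 0.74) in plus-dox and -0.75 (SE 0.70, 95% interval -2.26 to 0.77) in off-dox against no-dox tumors, and both intervals hold changes of either sign. Without no-dox tumor 2, the highest, these values were -0.19 and -0.16.

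Of the 10 genes Ccl20 alone correlated negatively with all 9 others over the 12 tumors (r from -0.67 with Ccl11 to -0.03 with Ccl5). For deviations from group means r was 0.44 with Ccl5, 0.02 with Ccl2 and 0.01 with Ccl4 and negative with the other 6, and r with Ccl5 was 0.06 without no-dox tumor 4 and plus-dox tumor 4. Ccl20 followed the epithelial marker Epcam, which was 204, 388, 166 and 240.5 in no-dox tumors 1 to 4, 159, 7.76, 146 and 133 in plus-dox tumors 1 to 4, and 265, 159.6, 72.3 and 40.9 in off-dox tumors 1 to 4 RPKM. Plus-dox tumor 2 and off-dox tumor 4 had the lowest Epcam of the 12, and no-dox tumor 2 was highest in both genes. Over the 12 tumors r was 0.83 and rho 0.88, and r was 0.77 without plus-dox tumor 2 and off-dox tumor 4 and 0.81 for deviations from group means. The mean log2 CPM of 6 epithelial markers, Epcam among them, gave r = 0.77, rho = 0.67 and 0.71 for deviations. Krt8 and Krt18 of that list were 532 and 608 RPKM in plus-dox tumor 2 and 525 and 752 in off-dox tumor 4. Their lowest values, 318 and 391 RPKM, fell in off-dox tumor 3. The 6 epithelial markers, all over 0.25 RPKM and none at 0, summed to 2123 to 2685 RPKM in no-dox, 1348 to 1756 in plus-dox and 943 to 2335 in off-dox tumors, and their part in the Ccl20 values was not tested.

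**Figure D4:**
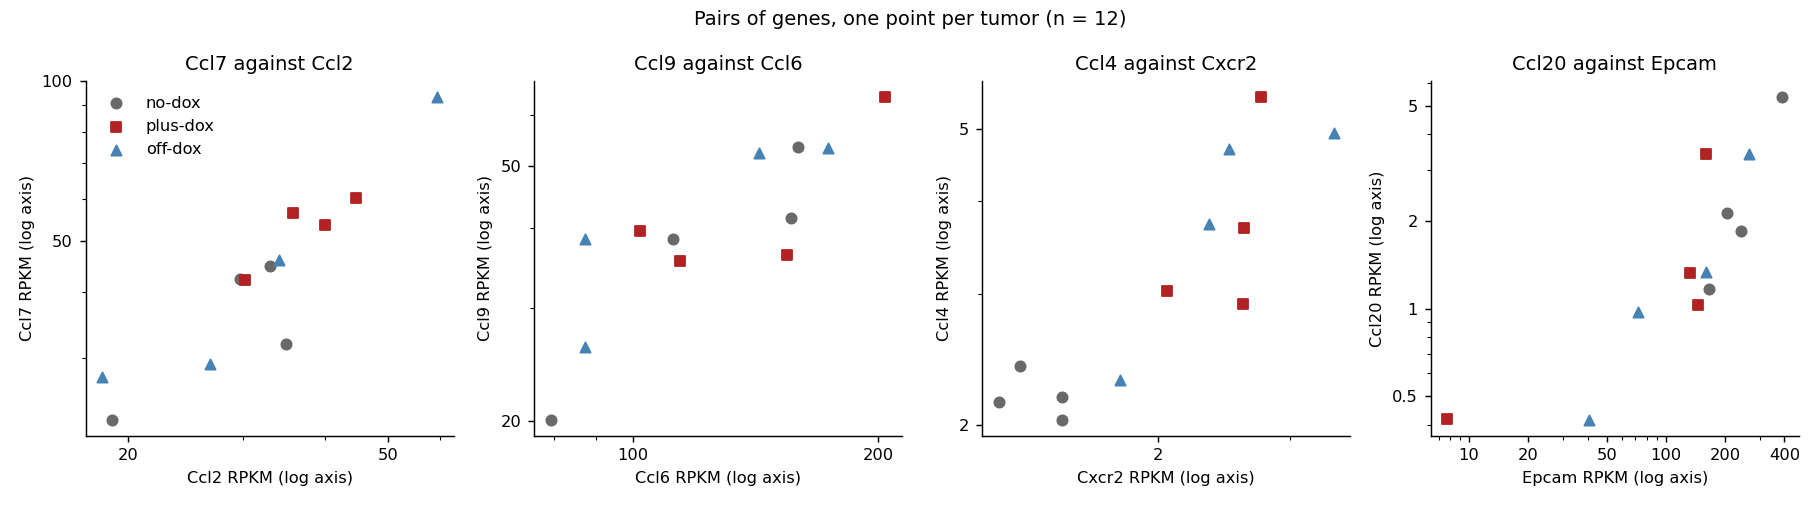
RPKM of Ccl7 against Ccl2, Ccl9 against Ccl6, Ccl4 against Cxcr2 and Ccl20 against Epcam (both axes logarithmic), with 1 point per tumor. In the first panel the highest point is off-dox tumor 3, in the third the 4 no-dox tumors have the lowest Cxcr2, and in the fourth plus-dox tumor 2 and off-dox tumor 4 lie at the lower left.

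Of all 45 pairs of the 10 genes, 31 correlated positively, with a median r of 0.23 and 8 pairs over 0.7. Genes of the first neighbourhood correlated with each other in all 6 pairs (median r = 0.72, 0.51 to 0.92). In the second neighbourhood the 10 pairs had a median r of 0.24 (-0.09 to 0.84), since Ccl6 with Ccl9 (0.84) and Ccl3 with Ccl4 (0.71) formed separate pairs and Ccl5 reached at most 0.26 with any of the other 4. Pairs across the 2 neighbourhoods had a median r of 0.42 (-0.39 to 0.82), with Ccl9 and Ccl11 at the top (0.82). Ccl5 was most like Gria3 (0.91), Clec2i (0.86) and Mmp25 (0.84), and Ccl3 most like Gys1 (0.85) and 1700109H08Rik (0.84). Ccl2 was most like Dennd2a (0.93), Trim30b (0.92) and Tmem106a (0.92), Ccl7 like the complement receptor gene C5ar1 (0.93), Cd37 (0.93) and Maf (0.92), Ccl4 like Eno2 (0.90), Rnf169 (0.89) and Cxcr2, Ccl11 like Cd209g (0.95), Entpd3 (0.94) and Opn3 (0.93), and Ccl20 like Pars2 (0.98), 1110008L16Rik (0.97) and Calr3 (0.97).

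**Figure D5:**
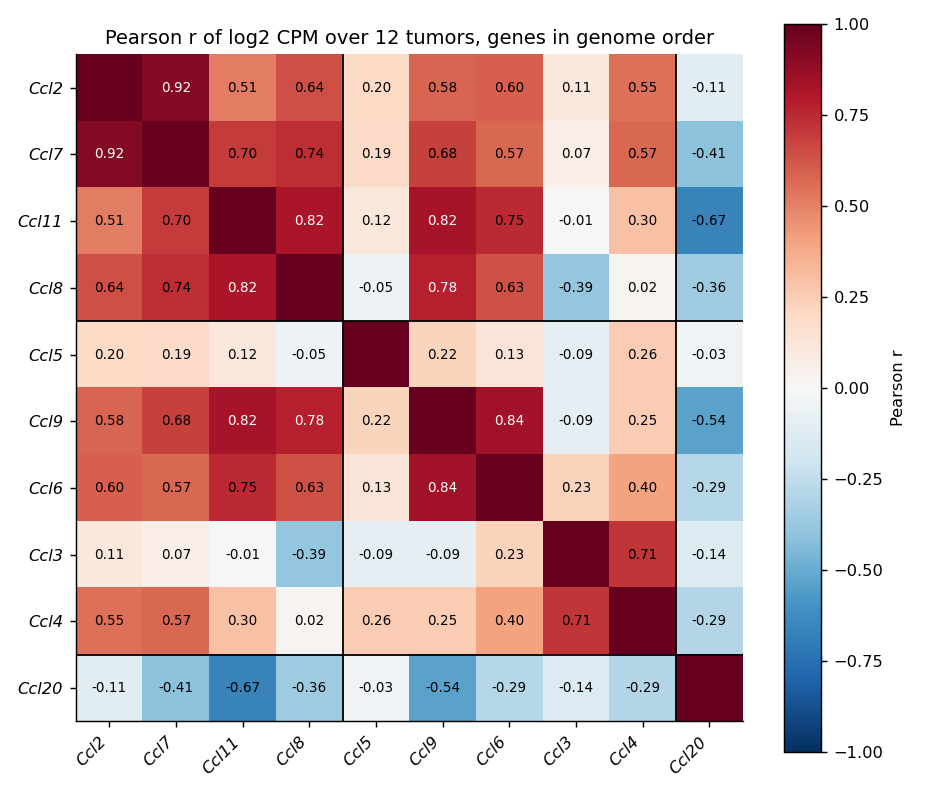
Pearson r of log2 CPM over the 12 tumors for each pair of the 10 genes, in genome order, with lines between the first neighbourhood, the second neighbourhood and Ccl20. The first 4 genes correlate positively with one another, and the row of Ccl20 is negative throughout.

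Of the 13 other CC chemokines on the list 11 had a row, 7 were tested and 6 exceeded 0.25 RPKM, with Ccl12 (73.7 RPKM on average) followed by Ccl17 (7.68) and Ccl22 (3.98), both Ccr4 ligands, Ccl25 (2.18), Ccl27a (1.78) and Ccl24 (0.710). None of the 7 was called in any comparison or passed an unadjusted p under 0.05. Ccl24, or eotaxin-2, reached 3.86 RPKM in plus-dox tumor 2 and 1.201 in off-dox tumor 4 against 0.0948 to 0.573 in the other 10, the reverse of Ccl20, and correlated with Epcam at r = -0.92 (-0.63 without those tumors). Ccl19, Ccl21a, Ccl21c and Ccl26 were listed at 0 in all 12 tumors, and the first 3 had 2 rows each at different places in the genome.

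Of the receptors, Ccr1, which binds Ccl3, Ccl6, Ccl7 and Ccl9, was highest and averaged 31.0 RPKM (22.5 to 43.2), and Ccr2 averaged 14.3 (7.29 to 23.8), Ccr7 3.48 and Ccr6 0.298. Of the 10 receptors 5 were below 0.25 RPKM. In all 3 comparisons 0 of the 9 receptors tested were called, and at an unadjusted p under 0.05 Ccr3 alone was higher, in plus-dox than in no-dox tumors, with a level of 0.00901 to 0.510 RPKM that lies under the limit for named genes and was singled out after its values were seen. Of the 5 atypical receptors and relatives 3 exceeded 0.25 RPKM, namely Ccrl2 (2.23), Ackr1 (1.30) and Ackr2 (0.408), and 0 of 5 were called.

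Of 16 genes of the pathways that induce CC chemokines 15 were tested and 1 was called, Il1b in off-dox against no-dox tumors. Il1b, a cytokine of activated macrophages and neutrophils, was 16.3, 12.7, 11.2 and 13.7 in no-dox tumors 1 to 4, 17.1, 21.2, 17.3 and 10.1 in plus-dox tumors 1 to 4, and 20.9, 29.6, 21.7 and 23.97 in off-dox tumors 1 to 4 RPKM. Every off-dox tumor exceeded every no-dox tumor, and plus-dox values spanned both (background for off-dox higher without overlap 4.99%). Its log2 fold change was 0.87 (SE 0.21, 95% interval 0.41 to 1.33) with an edgeR adjusted p of 0.0884, or from 0.00667 to 0.223 over the alternatives, and 0.76 to 0.96 on leaving out 1 tumor. The related Il1a did not pass, with 1.06 (SE 0.40, 95% interval 0.19 to 1.93) (edgeR adjusted p = 0.173). Nor did Tnf (0.30, SE 0.41) or the NF-kB subunit genes Nfkb1 (0.14, SE 0.077), Nfkb2 (0.26, SE 0.088) and Rela (0.013, SE 0.14) in the same comparison. Ifng was not tested, having 1 count over all 12 tumors.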

How the data were processed

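RNA-seq of polyA-selected, non-strand-specific libraries had been done on 12 tumors, grouped by their labels. Per the authors' methods and processing notes, 50-base single-end reads were mapped to mm9 with TopHat (version 1.4.1, Bowtie 0.12.8) and RefSeq isoforms condensed to 1 unstranded model per gene. The deposited expected counts are the authors' coverage of unambiguous exonic spans in reads, in part fractional. The deposited RPKM values were scaled by the authors to exonic length and total mapped reads. From there, counts were rounded and genes with at least 10 summed counts tested in edgeR (version 4.0.16; TMM; quasi-likelihood fit of 3 groups without covariates, checked on simulated data). Calls followed the study's limits: adjusted p under 0.1, change over 1.5-fold, mean RPKM over 0.25 and exonic length over 250 bp. The study itself used DESeq2 (here version 1.42.0, an alternative). Exact permutation tests and correlations used log2 CPM with a prior count of 2.

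Depth was 19845923 to 33137609 counted reads per tumor, and counting error is largest for genes with few counts, such as Ccl20. The members, gene lists, tests and markers were chosen with earlier results of these data known. All 10 CC chemokines were named, of the other lists those over 0.25 RPKM on average or called, and for each CC chemokine the 3 most correlated genes. Some items that these rules name are not reported here. Alternatives were DESeq2, other normalization, filters and limits, the compared tumors alone, the replicate number as a block, and leaving out tumors. The replicate numbers did not pair the tumors and p-values measure only the spread between these tumors.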

Additional observations from a re-analysis of the deposited data

Results flagged for a closer look

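Of 30 sets of 4 tumors (10 CC chemokines in 3 groups), 1 held a value far from the others by Dixon's test. Ccl9 in plus-dox tumor 2 was 64.1 RPKM, against 39.6 in the nearest plus-dox tumor. Chance alone marks about 1 set in 20, so 1 of 30 is no more than that. The same tumor had the highest Ccl6 (204 RPKM) and the lowest Epcam (7.76 RPKM), and the part of its cell makeup in the Ccl9 value was not tested.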

How the results depend on the processing

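The counts of calls moved with the processing. DESeq2 without moderated fold changes called 128 genes in plus-dox against no-dox, 615 in off-dox against no-dox and 6 in off-dox against plus-dox, and with moderated fold changes 90, 396 and 4, against 0, 235 and 0 in edgeR. Either way it called 1 CC chemokine in plus-dox (Ccl5) and 1 in off-dox (Ccl4) against no-dox. In off-dox against no-dox the genes called were 0 at an adjusted p under 0.05, 122 without a filter on low counts, 365 with at least 10 counts in every tumor, 3 in the 8 tumors alone, 0 with the replicate number as a block and 471, with 1 CC chemokine (Ccl4), when plus-dox tumor 2 and off-dox tumor 4 were left out, a choice made after seeing the data. Leaving out 1 tumor gave 0 to 789 genes in off-dox against no-dox, 0 to 3 in plus-dox against no-dox and 0 to 1 in off-dox against plus-dox, with 0 CC chemokines called throughout. The cause was not tested.

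Of the 30 fitted CC chemokine differences, none of them called, 13 kept their sign under every alternative and 17 did not. On leaving out 1 tumor the log2 fold change ran, in plus-dox against no-dox, from -0.29 to 0.39 for Ccl8, -0.041 to 0.44 for Ccl9, -0.018 to 0.35 for Ccl6 and -0.074 to 0.61 for Ccl3. In off-dox against no-dox it ran from -0.29 to 0.42 for Ccl11, -0.23 to 0.14 for Ccl6, -0.69 to 0.11 for Ccl8, -0.026 to 0.41 for Ccl9, -0.11 to 0.48 for Ccl2 and -0.011 to 0.68 for Ccl7. In off-dox against plus-dox it ran from -0.20 to 0.48 for Ccl3, -0.083 to 0.32 for Ccl4, -0.15 to 0.22 for Ccl9, -0.72 to 0.73 for Ccl20, -0.61 to 0.083 for Ccl7 and -0.50 to 0.087 for Ccl2.

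Ccl6 in off-dox against no-dox was 0.0026 with at least 10 counts in every tumor. Without plus-dox tumor 2 and off-dox tumor 4 the values were -0.025 for Ccl6 and -0.047 for Ccl9 in plus-dox against no-dox, 0.10 for Ccl6 in off-dox against no-dox, and 0.076 for Ccl2, 0.13 for Ccl6, 0.13 for Ccl7 and 0.26 for Ccl9 in off-dox against plus-dox. Deviations of same-numbered tumors correlated at -0.088 on average over 12 pairs, and a tumor correlated best with its own number in 3 of 24 cases, so the tumors share only a number. With that number as a block, Ccl8 in plus-dox against no-dox was 0.10 and Ccl20 in off-dox against plus-dox -0.12. Ccl20 had 10 to 129 counts per tumor, the fewest of the 10 genes, and the widest spread between tumors (12.9-fold), and the part of either in its wide intervals was not tested.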
